A study of Homo sapiens with 4 samples.

Results

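NF-κB is a family of transcription factors that switches on inflammatory and survival genes, and several of those genes encode its own inhibitors. 10 genes of this family and its feedback loop were read from the 39323 genes of the series by their symbols, and no threshold on their values was applied. They are the 5 subunits NFKB1, NFKB2, RELA, RELB and REL, the 4 feedback genes NFKBIA, NFKBIE, TNFAIP3 and BIRC3, and the ligand TNF. They were measured in RD and JR1 cells, 2 established lines of fusion-negative rhabdomyosarcoma (FN-RMS), a soft tissue tumor that carries muscle transcription factors without maturing into muscle. Both lines were grown in serum-containing medium, infected with a pLKO.1-puro lentivirus and selected with puromycin. The virus carried a hairpin RNA against human SKP2, an F-box protein of a ubiquitin ligase (shSKP2.2), or a non-targeting hairpin (shSCR). This gave 4 groups of 1 library each, both hairpins in both lines. All 4 share infection and selection, untransduced cells were not analysed here, and the time from infection to RNA is not given in the sources used here. With 1 library per group, no difference has a replicate check, no p-value is given, and an effect of the hairpin and a difference between cultures cannot be told apart.

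Levels are TPM, relative transcript abundances that are corrected for length and can be compared between genes, but from which library depth and the precision of a single value cannot be had, so both are unknown. Changes are log2 of the ratio of TPM + 1, and the added 1 understates the change of low genes. A gene was tested where its 4 libraries averaged 1 TPM or more, which left 12985 genes and 8 of the 10 members, without BIRC3 and TNF. A gene was called past the limit at a difference of 1 or more on the log2 scale. Short structural RNAs took 50.1% to 64.9% of the TPM, with a larger share in the shSKP2.2 library of each line, and over all tested genes the RD and JR1 medians of the change were -0.27 and -0.21. For this reason a second value is given with these RNAs removed and TPM rescaled, which moved the medians to 0.10 and 0.03. The part of this shift in the results was not tested. SKP2 itself went from 92.8 to 7.40 TPM in the RD pair and from 46.5 to 2.72 TPM in the JR1 pair. The muscle genes that mark FN-RMS were present, with MYOD1 between 87.0 and 131 TPM, although MYF5 was listed at 0 in all 4 libraries. Several muscle markers differed between hairpins and not in 1 direction. MYOG went from 31.6 to 58.4 TPM in the RD pair and from 54.0 to 107 TPM in the JR1 pair, whereas PAX7 fell, with a change of -1.43 in each line, and their part in the results was not tested. In bulk RNA, fewer cells of a kind and less RNA per cell cannot be told apart. The 12 leukocyte markers summed to 0.78 to 1.55 TPM per library, and PTPRC was at most 0.01 TPM.

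In resting cells NF-κB dimers are held in the cytoplasm by inhibitors of the IκB group. Signals from receptors such as those for tumor necrosis factor activate a kinase complex, which marks IκB for destruction by a ubiquitin ligase of the same SCF class that SKP2 serves, there with the F-box proteins BTRC or FBXW11. A slower, non-canonical branch processes the NFKB2 precursor and acts through RELB. The freed dimers bind κB sites in DNA and raise their own inhibitors, among them NFKBIA and TNFAIP3, so that transcripts of the feedback genes are often read as a sign of NF-κB activity. Transcripts do not show where the proteins are or how active they are.

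The κB sites of the members are shown because the family feeds back on itself through them. RefSeq promoter windows (GRCh38.p14, from 250 bases before to 50 bases after a start site) were found for 8 members, 12 windows in all, and not for RELB and NFKBIE. They were searched on both strands for the 10-base κB consensus, where matches may overlap. 6 of the 8 members held at least 1 match. As background, 13.3% of all 27305 genes with a window held a match, and 11.3% of all 35116 windows did. The members were chosen as a family with feedback on itself, and some have several windows, so this was not a test. The windows of RELA and TNF held none, which says only that these letters are not in the windows. The stretches below are written 5′ to 3′ on the strand of the gene, with the matches in capitals.
NFKBIA (chr14:35404811-35404840, minus strand): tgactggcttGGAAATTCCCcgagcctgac
TNFAIP3 (chr6:137867188-137867217, plus strand): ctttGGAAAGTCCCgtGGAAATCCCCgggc
BIRC3 (chr11:102317275-102317304, plus strand): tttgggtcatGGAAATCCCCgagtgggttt
NFKB1 (chr4:102501300-102501329, plus strand): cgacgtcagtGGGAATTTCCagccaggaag
NFKB2 (chr10:102394462-102394490, plus strand): aaacgtcatGGGAATTCCCCcctccgggg
NFKB2 (chr10:102395674-102395703, plus strand): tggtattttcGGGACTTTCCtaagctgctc
REL (chr2:60881518-60881546, plus strand): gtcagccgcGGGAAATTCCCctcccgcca

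The capitals of TNFAIP3 hold 2 separate matches, and those of REL and of the first NFKB2 stretch hold 2 that overlap. NFKB2 had the most matches, 5 over its 3 windows. Its matches lay before 2 of its start sites. A match is a run of letters and not a measured site, since binding was not measured in these libraries.

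RELA (chr11:65653601-65662946, GRCh38 as are the gene positions that follow), which encodes the main transactivating subunit, had the highest level of the 5 subunits in every library. It had 26.0 TPM in RD shSCR, 22.0 TPM in RD shSKP2.2, 23.1 TPM in JR1 shSCR and 19.3 TPM in JR1 shSKP2.2. Its RD change was -0.23 and its JR1 change -0.25, close to the median of all genes, and after removal of the short structural RNAs it was 0.16 and 0.03, so its direction depended on the scaling. RELA made up 45.1% of the summed TPM of the 5 subunits in RD shSCR and 34.9% in JR1 shSCR.

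NFKB1, whose product is the precursor of the usual partner of RELA, had 14.6 TPM in RD shSCR and 10.5 TPM in RD shSKP2.2. In JR1 it had 12.4 TPM in shSCR and 9.88 TPM in shSKP2.2. Its RD change was -0.44 and its JR1 change -0.30, or -0.07 and -0.04 without the short structural RNAs. REL, best known from lymphocytes, was the lowest subunit and lay between 1.34 and 1.70 TPM in the 4 libraries. REL changed by -0.05 in RD and -0.10 in JR1, and by 0.26 and 0.10 without those RNAs, so its direction also depended on the scaling. None of RELA, NFKB1 and REL came within 0.5 of the limit in either line.

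NFKB2 (chr10:102394110-102402529) and RELB (chr19:45001449-45038194), the genes of the non-canonical branch, stood apart from these in JR1. NFKB2 had 11.4 TPM in RD shSCR, 7.75 TPM in RD shSKP2.2, 19.6 TPM in JR1 shSCR and 9.40 TPM in JR1 shSKP2.2. Its RD change was -0.51 and its JR1 change -0.99, just inside the limit, and without the short structural RNAs these were -0.15 and -0.75. RELB had 3.84 TPM in RD shSCR, 2.81 TPM in RD shSKP2.2, 9.56 TPM in JR1 shSCR and 3.67 TPM in JR1 shSKP2.2. The JR1 shSCR library was thus the highest of the 4 for both genes, and the other 3 libraries lay below it within a narrow range. The RD change of RELB was -0.35 and the JR1 change -1.18, the latter past the limit. Without the short structural RNAs it was -0.04 in RD and -1.02 in JR1, and relative to the median of all genes the values were -0.08 and -0.96, no longer past it.

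NFKBIA (chr14:35401513-35404749) encodes IκBα, the inhibitor that NF-κB renews fastest. It was the most abundant member in both control libraries and had the widest range of the tested members, 1.55 on the log2(TPM + 1) scale. It had 35.4 TPM in RD shSCR and 17.5 TPM in RD shSKP2.2. In JR1 it had 32.5 TPM in shSCR and 11.5 TPM in shSKP2.2. The shSKP2.2 library was the lower in each line, and RELA replaced NFKBIA as the most abundant member in both. The change of NFKBIA was -0.98 in RD, just inside the limit, and -1.43 in JR1, past it. Of all tested genes, 7.81% in RD and 3.33% in JR1 had a change as low or lower. Without the short structural RNAs the RD and JR1 changes were -0.60 and -1.19.

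NFKBIE encodes IκBε, a slower inhibitor of the same group. It had 4.99 TPM in RD shSCR, 3.58 TPM in RD shSKP2.2, 3.76 TPM in JR1 shSCR and 2.28 TPM in JR1 shSKP2.2. Its RD change was -0.39 and its JR1 change -0.54, or -0.07 and -0.38 without the short structural RNAs. TNFAIP3 encodes a ubiquitin-editing enzyme that shuts off signalling from the receptors. It had 1.55 TPM in RD shSCR, 1.81 TPM in RD shSKP2.2, 2.33 TPM in JR1 shSCR and 2.01 TPM in JR1 shSKP2.2. Its promoter window holds 2 matches, and it differed by 0.14 in RD and by -0.15 in JR1. Without the short structural RNAs the change of TNFAIP3 was 0.50 in RD and 0.06 in JR1, so its direction in JR1 depended on the scaling.

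BIRC3 and TNF were too low to be tested. BIRC3, a ubiquitin ligase that joins the receptor complex and restrains the non-canonical branch, was listed at 0 in RD shSCR and did not exceed 0.06 TPM in any library. TNF, the cytokine that both activates NF-κB and is among its targets, had 1.04 TPM in RD shSCR, 0.03 TPM in RD shSKP2.2, 0.85 TPM in JR1 shSCR and 0.15 TPM in JR1 shSKP2.2. Both control libraries thus lay above both shSKP2.2 libraries. On the log2(TPM + 1) scale it differed by -0.99 in RD and by -0.69 in JR1. With 0.1 TPM added in place of 1 these were -3.13 and -1.93, so the size for TNF depends on the added value, and the reads behind such levels are unknown.

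**Figure D1:**
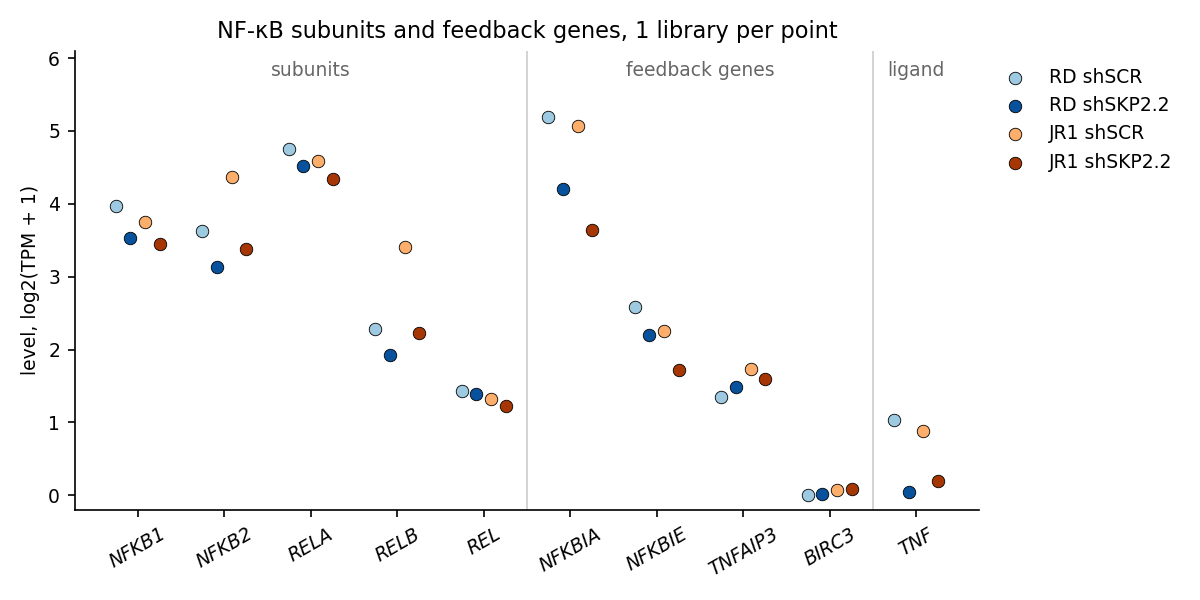
Levels of the 10 members as log2(TPM + 1) on the y axis, 1 point per library, colored by line and hairpin. NFKBIA goes from 35.4 to 17.5 TPM in the RD pair and from 32.5 to 11.5 TPM in the JR1 pair, RELB and NFKB2 are highest in JR1 shSCR, and BIRC3 lies near 0 throughout.

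In RD, 0 of the 8 tested members were called, where 7.37% of all tested genes were lower by 1 or more and 1.08% were higher. In JR1, 2 of the 8 were lower by that much, NFKBIA and RELB, against 9.05% of all tested genes, and 0 were higher, against 1.78%. By sign alone, 7 of the 8 were lower in RD, where 75.0% of all tested genes were lower, and 8 of 8 were lower in JR1, where 68.9% were. Read against these shares the signs follow the bulk of the genes. Relative to the median of each line, 5 of the 8 members were lower in both lines, NFKB1, NFKB2, RELB, NFKBIA and NFKBIE, against 37.9% of all tested genes. The median change of the 8 members was -0.37 in RD and -0.42 in JR1, against -0.27 and -0.21 for all tested genes.

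**Figure D2:**
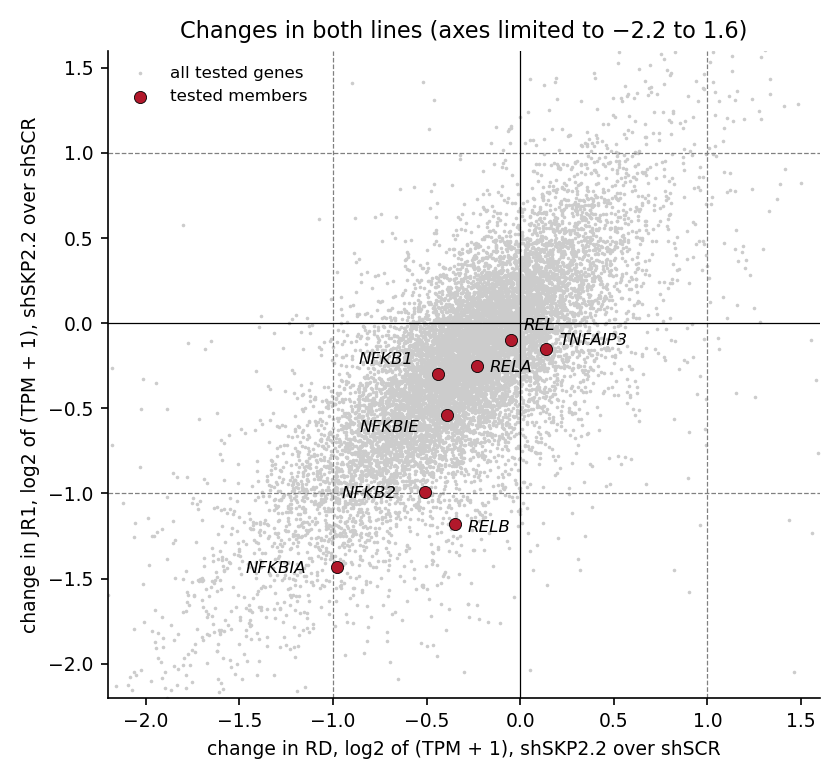
Change of each tested gene in RD (x axis) and JR1 (y axis), both as log2 ratio of TPM + 1, shSKP2.2 against shSCR; grey points are all tested genes in the plotted range, red points the 8 tested members, and dashed lines the limit. NFKBIA lies at -0.98 and -1.43, and RELB and NFKB2 lie lower in JR1 than in RD.

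The change was more negative in JR1 than in RD for 7 of 8 members, with NFKB1 as the exception, whereas 42.1% of all tested genes did. The difference between the lines was largest for RELB, at 0.83, followed by NFKB2 at 0.48 and NFKBIA at 0.45, each as the RD change minus the JR1 change. After removal of the short structural RNAs this again held for 7 of 8, but then for 55.9% of the tested genes that remained. These differences between the lines have no replicate check.

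Ratios within a library do not depend on how the library was scaled. NFKBIA had 1.36 times the TPM of RELA in RD shSCR and 0.795 times in RD shSKP2.2. In JR1 this ratio was 1.41 in shSCR and 0.594 in shSKP2.2. The control libraries of the lines were thus close to each other, and both shSKP2.2 libraries had less NFKBIA than RELA. RELB had 0.414 times the TPM of RELA in JR1 shSCR, and between 0.128 and 0.190 times in the other 3 libraries. The ratio of NFKB2 to NFKB1 was 1.58 for JR1 shSCR and 0.951 for JR1 shSKP2.2, against 0.786 and 0.738 for the RD pair, so NFKB2 was above NFKB1 in JR1 shSCR only. REL stayed between 0.0649 and 0.0732 times RELA. TNFAIP3 to RELA was 0.0597 and 0.0823 for the RD pair, and 0.101 and 0.104 for the JR1 pair, shSCR first.

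**Figure D3:**
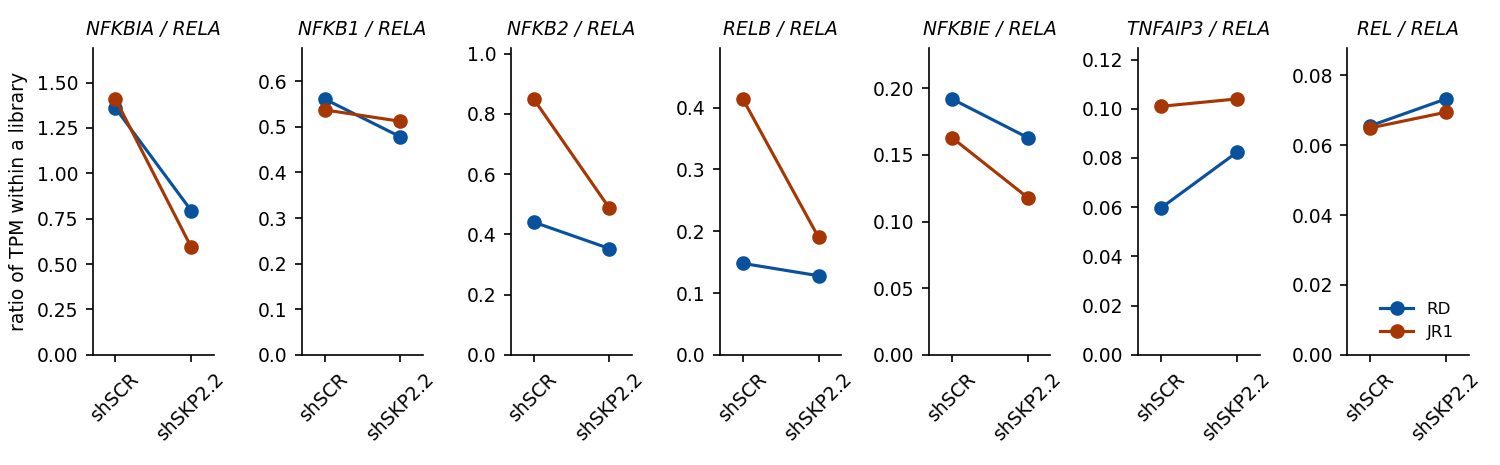
Ratio of the TPM of 7 members to that of RELA in the same library (y axes from 0, each panel on its own scale), for shSCR and shSKP2.2 in RD (blue) and JR1 (brown), 1 library per point. The NFKBIA ratio goes from 1.36 to 0.795 in RD and from 1.41 to 0.594 in JR1, and the RELB and NFKB2 ratios stand highest in JR1 shSCR.

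Between the lines with shSCR, RELB was lower in RD than in JR1, with a log2 difference of -1.13, and was the 1 member of 8 past the limit. Of all tested genes, 3.44% were lower in RD by that much and 6.5% were higher. NFKB2 differed by -0.73 and TNFAIP3 by -0.39, also lower in RD, while RELA, NFKB1, REL, NFKBIA and NFKBIE were higher in RD by 0.11 to 0.33, a direction that turned for RELA, REL and NFKBIA without the short structural RNAs. With shSKP2.2, 0 of the 8 were past the limit, where 2.7% of all tested genes were lower in RD and 5.39% were higher. RELB then differed by -0.29 and NFKB2 by -0.25, and NFKBIA was higher in RD by 0.57. The gap of the non-canonical genes between the lines was therefore seen with shSCR and was smaller with shSKP2.2, in 1 library each.

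The summed TPM of the 5 subunits was 57.5 for RD shSCR and 44.7 for RD shSKP2.2, and 66.2 and 43.6 for the JR1 pair. Without the short structural RNAs the sums were 115 and 118 for the RD pair and 154 and 124 for the JR1 pair, so the direction in RD depended on the scaling. NFKB2 and RELB held 29.7% and 14.4% of this sum in JR1 shSCR. In JR1 shSKP2.2 they held 21.6% and 8.42%, nearer to the 19.9% and 6.68% of RD shSCR.

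The genes around the members were taken from lists of the pathway, of which none holds a member. In a list of 13 kinases 12 were tested, with RD and JR1 medians of -0.31 and -0.30 (0.06 and -0.06 without the short structural RNAs). Past the limit was 1, IKBKB in JR1, which is 8.33% of those tested, against 9.05% of all tested genes lower by that much. The core kinase genes CHUK, IKBKB and IKBKG were lower in both lines with each scaling used. CHUK, which encodes IKKα, went from 14.0 to 8.51 TPM in the RD pair and from 12.8 to 7.46 TPM in the JR1 pair. IKBKB, which encodes IKKβ, went from 18.7 to 10.2 TPM in the RD pair and from 11.2 to 5.02 TPM in the JR1 pair, changes of -0.82 and -1.02, or -0.46 and -0.83 without the short structural RNAs, which is inside the limit. IKBKG, the regulatory subunit, went from 10.2 to 5.65 TPM in the RD pair and from 9.30 to 5.51 TPM in the JR1 pair. MAP3K14, the kinase of the non-canonical branch, went from 3.56 to 4.13 TPM in the RD pair and from 3.68 to 3.30 TPM in the JR1 pair. MAP3K3 had the highest change in JR1, 0.42.

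Among the adaptors and ubiquitin enzymes that link receptors to these kinases, 20 of 23 were tested, with RD and JR1 medians of -0.47 and -0.58 (-0.16 and -0.32 without the short structural RNAs). 2 were lower past the limit in RD, TRAF3 and MALT1, and 1 in JR1, TRADD. These are 10.0% and 5.0% of those tested, against 7.37% and 9.05% of all tested genes. Without the short structural RNAs the RD changes of TRAF3 and MALT1, -0.90 and -0.83, were inside the limit. TRADD in JR1 was then at -1.04, but relative to the median of all genes it was at -0.88, inside the limit. MALT1 was named after its value was seen. TRAF3, an adaptor that holds the non-canonical branch in check, went from 6.64 to 2.51 TPM in the RD pair and from 6.28 to 3.04 TPM in the JR1 pair. TRADD, the adaptor of the TNF receptor, went from 4.64 to 2.10 TPM in the RD pair and from 5.04 to 1.83 TPM in the JR1 pair. FBXW11, an F-box protein that recognises IκB, had the highest change of the list, 0.09 in RD and 0.39 in JR1.

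Among the ligands and receptors 9 of 23 were tested, the rest having a mean under 1 TPM. The receptor gene TNFRSF1A, whose product binds tumor necrosis factor, was well expressed, at 53.8 TPM in RD shSCR, 35.2 TPM in RD shSKP2.2, 45.7 TPM in JR1 shSCR and 32.5 TPM in JR1 shSKP2.2. The RD and JR1 medians of the list were -0.12 and -0.50, or 0.28 and -0.36 without the short structural RNAs. TLR6, a receptor for microbial products, was highest, from 0.85 to 2.10 TPM in the RD pair and from 1.49 to 2.78 TPM in the JR1 pair, and its change passed the limit in RD without the short structural RNAs, at 1.28, and was 1.00 in JR1. The ligand gene TNFSF9 was lowest in JR1, with a change of -1.29, against -0.36 in RD.

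Of 15 genes listed as other inhibitors of the pathway 14 were tested, and whether each acts as an inhibitor in these cells was not measured. The RD and JR1 medians were -0.34 and -0.49 (0.05 and -0.26 without the short structural RNAs). Lower past the limit in JR1 were 2, NFKBIZ and, named after its value was seen, BCL3. That is 14.3% of those tested, against 9.05% of all tested genes. In RD 0 were, against 7.37%. The JR1 change of BCL3 was -1.10, but -0.90 without the short structural RNAs, inside the limit. NFKBIZ, a nuclear member of the IκB group, was lowest in both lines and moved much as NFKBIA did. It also stands in the list of target genes, so its change is counted in both lists. It went from 20.9 to 10.7 TPM in the RD pair and from 26.2 to 9.18 TPM in the JR1 pair, changes of -0.90 and -1.42. CYLD, a deubiquitinase that opposes NF-κB signalling, was highest in JR1 at 0.67 (1.04 without the short structural RNAs), with 0.00 in RD, and OTUD7B was highest in RD at 0.05.

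Known target genes of NF-κB outside the members had the widest spread. The list was chosen with earlier results of these data known, so the shares that follow are not a test. Of 39 listed, 27 were tested, and 7 were lower past the limit in RD and 16 in JR1, 25.9% and 59.3% of those tested, against 7.37% and 9.05% of all tested genes, while 0 were higher past it in either line, except that without the short structural RNAs SDC4 reached 1.07 in RD and BCL2L1 reached 1.09 in JR1. The RD and JR1 medians were -0.47 and -1.13, or -0.25 and -1.17 without the short structural RNAs. Without the filter on low values they were -0.28 and -0.94. CCL2 and IL6 were under 1 TPM in both shSKP2.2 libraries and passed the filter through their shSCR values. Falls of such genes are in part tied to the filter, which was the same for all tested genes. The 7 genes lower past the limit in both lines, named after their values were seen, were CCL5, CCL2, CXCL1, IL6, LIF, IL32 and JUNB, mostly secreted signals. Whether NF-κB drives them in these cells was not measured. Of all 12985 tested genes, 622 were lower past the limit in both lines. CCL2, a chemokine for monocytes, went from 7.23 to 0.34 TPM in the RD pair and from 29.7 to 0.88 TPM in the JR1 pair. IL6 went from 7.28 to 0.36 TPM in the RD pair and from 8.18 to 0.55 TPM in the JR1 pair. CCL5 had the lowest changes of the list, -5.56 for RD and -5.62 for JR1. The highest targets were SDC4 in RD, at 0.65, and BCL2L1 in JR1, at 0.80. The change was more negative in JR1 than in RD for 23 of the 27, against 42.1% of all tested genes. Without the short structural RNAs this held for 24 of the 27, against 55.9% of the tested genes that remained.

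**Figure D4:**
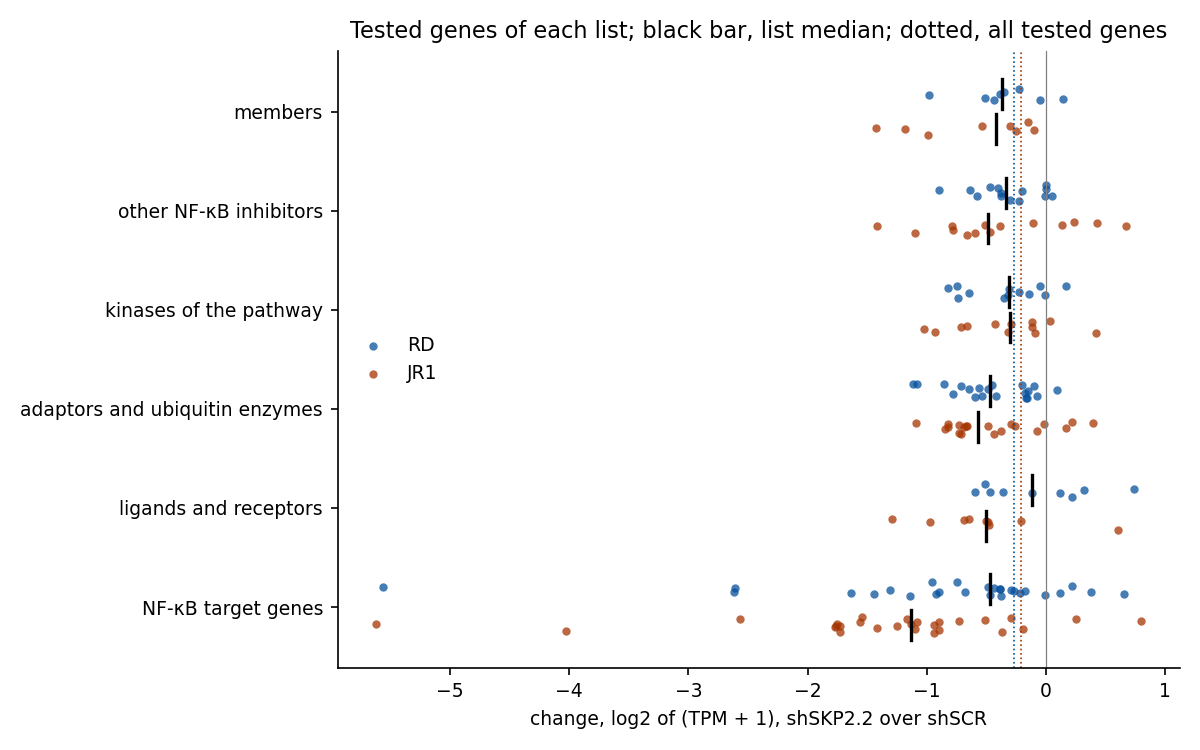
Change of each tested gene (x axis, log2 ratio of TPM + 1, shSKP2.2 against shSCR) in the members and in 5 lists of the pathway, RD in blue and JR1 in brown; black bars are list medians and dotted lines the medians of all tested genes. The target genes have medians of -0.47 in RD and -1.13 in JR1, against -0.27 and -0.21 for all tested genes.

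Among the genes whose pattern was most like that of NFKBIA were IFITM2, SH3BGRL, SOCS3 and VBP1. Likeness was the Euclidean distance of log2(TPM + 1) after each gene was centred on its own mean over the 4 libraries, and it ran from 0.076 for IFITM2 to 0.116 for VBP1. IFITM2, an interferon-induced membrane protein, went from 87.9 to 44.8 TPM in the RD pair and from 76.8 to 28.3 TPM in the JR1 pair. SOCS3, a feedback inhibitor of cytokine signalling, went from 41.6 to 21.3 TPM in the RD pair and from 40.1 to 15.0 TPM in the JR1 pair. SH3BGRL went from 31.6 to 15.6 TPM in the RD pair and from 30.8 to 10.8 TPM in the JR1 pair. VBP1 went from 26.0 to 13.0 TPM in the RD pair and from 22.0 to 8.39 TPM in the JR1 pair. 4 libraries are few points, and how many genes share such a pattern was not counted.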

How the data were processed

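Poly-A selected, directional libraries were made from the cells. For each of them the authors deposited gene-level TPM with 2 decimals, which RSEM (1.3.2) gave from reads placed on GRCh38 by STAR (2.7.9a). The gene annotation is not given in the sources used here. Samples were grouped by their titles, with 1 library per group and 4 in all.

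From the deposited TPM, log2 of the ratio of TPM + 1 was computed for shSKP2.2 over shSCR in each line and for RD over JR1 under each hairpin. The steps were tested on simulated data, with large changes set in genes with a mean of 5 TPM or more. Small changes, changes in lower genes and a shift in the share of short structural RNAs were not simulated. The alternatives were 0.1 TPM added in place of 1, centring on the median of all tested genes, removal of 655 short structural RNA genes by symbol with rescaling, no filter, a minimum mean of 5 TPM and a limit of 1.5-fold.

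Named genes are the members, SKP2, the highest and lowest tested gene of each list in each line, 4 kinases and the 5 genes nearest to the member with the widest range, of which 1 is not reported here. The genes with opposite signs in the 2 lines, MALT1, BCL3, the 7 targets lower in both lines and the markers given with values were named after their values were seen. The members, lists and rules were chosen with earlier results of these data known. 3 genes (NFKBIZ, TNIP1 and TRAF1) stand in 2 lists. Promoter sequences came from RefSeq (GRCh38.p14). Scripts ran under Python 3.11.15 (pandas 2.3.3, numpy 2.4.6, matplotlib 3.10.9).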

Additional observations from a re-analysis of the deposited data

Results flagged for a closer look

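All 88 tested members and genes of the 5 pathway lists were screened for changes of opposite sign in RD and JR1, and 15 had them (17.0%, against 21.3% of all tested genes). With 1 library per group none of these differences was tested. Each value below is the RD change minus the JR1 change, with TPM as deposited. 6 of the 15 kept opposite signs without the short structural RNAs. Among them were CXCL2 at 1.46 (0.38 in RD, -1.08 in JR1) and CXCL3 at 1.29 (0.12 and -1.17), both genes of chemokines that attract neutrophils. The others were TNFAIP8 at -0.93 (-0.68 and 0.25), IL1RAP at 0.82, TNFRSF10B at 0.61 and TLR3 at 0.43. The remaining 9 were higher in both lines without those RNAs, so their opposite signs depended on the scaling. They were TNFAIP3 at 0.29 (0.14 and -0.15), MAP3K14 at 0.29, MAP3K3 at -0.43, SDC4 at 0.85, COMMD1 at -0.81, UBE2N and UBE2V1 at -0.37 each, TAB2 at -0.33 and NFKBIL1 at -0.24.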

How the results depend on the processing

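With 1 library per group no replicate could be left out, and neither depth nor counting error can be had from TPM, so differences near the limit and levels near 0 are the least certain. In RD the count of members past the limit went from 0 to 1 with 0.1 TPM added and with a limit of 1.5-fold (NFKBIA in both), and to 1 without the short structural RNAs (TNF, which then passed the filter). In JR1 it went from 2 to 1 after centring and with a minimum mean of 5 TPM, NFKBIA in each, since RELB then missed the limit or the filter. It went to 3 with 0.1 TPM added and with a limit of 1.5-fold (NFKB2 joined) and without the short structural RNAs (TNF joined). TNF passed the filter there only through shSCR, at 2.08 TPM in RD and 1.98 TPM in JR1 after rescaling. With shSKP2.2 it had 0.0796 TPM in RD and 0.427 TPM in JR1. Its calls as lower are therefore tied to the filter and are no support. Between the lines with shSCR the count of members past the limit went from 1 to 2 with a limit of 1.5-fold. It went to 0 with a minimum of 5 TPM, which removed RELB. The median change of the members was -0.45 in RD and -0.51 in JR1 with 0.1 TPM added, -0.10 and -0.20 after centring, -0.07 and -0.38 without the short structural RNAs (over 9 members, since TNF joined, and -0.05 and -0.21 over the same 8), and -0.47 and -0.64 with a minimum of 5 TPM. NFKBIA, NFKBIE, NFKB1, NFKB2, RELB and TNF were lower in both lines under each scaling and added value tried, and RELA, REL, TNFAIP3 and BIRC3 were not.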

Other observations

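Among all tested genes with a RefSeq promoter window, the 1712 with a κB match had RD and JR1 medians of -0.29 and -0.24, and the 8378 without had -0.28 and -0.21. Of the genes with a match 8.0% were lower past the limit in RD and 10.3% in JR1, against 7.09% and 8.47% of those without. A κB match near the start site therefore went with little difference in change over all genes. In the list of target genes 17 of the 32 with a promoter window held a match, against 13.3% of all genes with a window. The list was made of known targets, so this was not a test.

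TEK, the receptor of angiopoietins and an endothelial marker, was the 1 gene of 5 endothelial markers that was tested. It had 6.37 TPM in RD shSCR, 3.38 TPM in RD shSKP2.2, 5.53 TPM in JR1 shSCR and 2.55 TPM in JR1 shSKP2.2, while the other 4, PECAM1, CDH5, KDR and VWF, did not exceed 0.38 TPM. VWF had 0.24 TPM with shSCR and 0.38 TPM with shSKP2.2 in RD, and 0.26 and 0.09 TPM in JR1.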
